A study of Mus musculus with 24 samples.

Results

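The time course in WT bone marrow covered 4 of the 24 samples of the series: 1 array of control cells and 1 array each at 1, 2 and 4 weeks after myocardial infarction (MI). Each array held RNA of CD11b+ cells isolated from the bone marrow of 5 pooled mice. All mice were male WT animals of the Balb/C background, given as 10 weeks old. The labels call the first group control, and the text of the study also uses the word sham. CD11b, the integrin alpha M chain encoded by Itgam, marks neutrophils, monocytes and their relatives. Genes were used in a comparison when their probe was well above background on both arrays, which left 22541 genes at 1 week, 24027 at 2 weeks and 23613 at 4 weeks. With 1 array per condition no test was possible, so every result is the size of a difference between 2 arrays and carries no p-value.

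An infarct sets off a demand for myeloid cells, and the bone marrow answers it by releasing neutrophils and monocytes. The marrow also makes B cells, red cells and platelets, and its stromal cells hold progenitors in place through signals such as Cxcl12. Interferons act on most of these cells and switch on a common set of antiviral genes, among them the Ifit family, and a second, overlapping set of guanylate-binding and immunity-related GTPases. In cells isolated in bulk, fewer cells of a type and less RNA per cell cannot be told apart.

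A level is the log2 spot signal minus the 75th percentile of its array, so 0 is the 75th percentile and a difference of 1 is 2-fold. The 75th percentile signal was 1780 on the control array, 1106 at 1 week, 1615 at 2 weeks and 963 at 4 weeks, which makes the 1-week and 4-week arrays the dimmer ones. All 4 arrays lay on 1 slide, and the time after MI and the position on the slide cannot be told apart. Repeated spots of 1 probe on 1 array had a median SD between 0.0799 and 0.116 on the log2 scale, which covers technical spread only. Itgam had levels of 5.10 in control, 5.68 at 1 week, 5.29 at 2 weeks and 5.60 at 4 weeks. All 7 members of the list of CD11b and integrin partners were well above background on all 4 arrays, and none differed 2-fold from control.

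At 1 week 1932 genes were at least 2-fold higher than control (8.57%) and 1250 were at least 2-fold lower (5.55%). At 2 weeks the counts were 702 higher (2.92%) and 547 lower (2.28%). At 4 weeks 2028 genes were higher (8.59%) and 652 lower (2.76%). The 2-week array was therefore the one nearest to control. The median gene differed from control by 0.22 at 1 week, by -0.00 at 2 weeks and by 0.13 at 4 weeks, and list medians are to be read against these values, which are repeated beside the main lists. The split between higher and lower depended on the scaling. With each array scaled to the median of all its spots it became 1445 higher and 1668 lower at 1 week, 569 higher and 706 lower at 2 weeks, and 1296 higher and 1421 lower at 4 weeks. Most genes counted as higher were dim, with 1374 of the 1932, 531 of the 702 and 1501 of the 2028 below the median level of the control array. For scale, the control array of HDC-KO bone marrow, which lay on another slide, was at least 2-fold above the WT control array at 1.17% of 24100 genes and below it at 0.971%. The control array of STAT6-KO bone marrow, on a further slide, was above it at 9.30% of 23931 genes and below it at 3.87%. The STAT6-KO and WT control arrays thus differed about as often as the 1-week and 4-week arrays differed from control. The HDC-KO control array differed from the WT control array less often than any array after MI did.

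**Figure D1:**
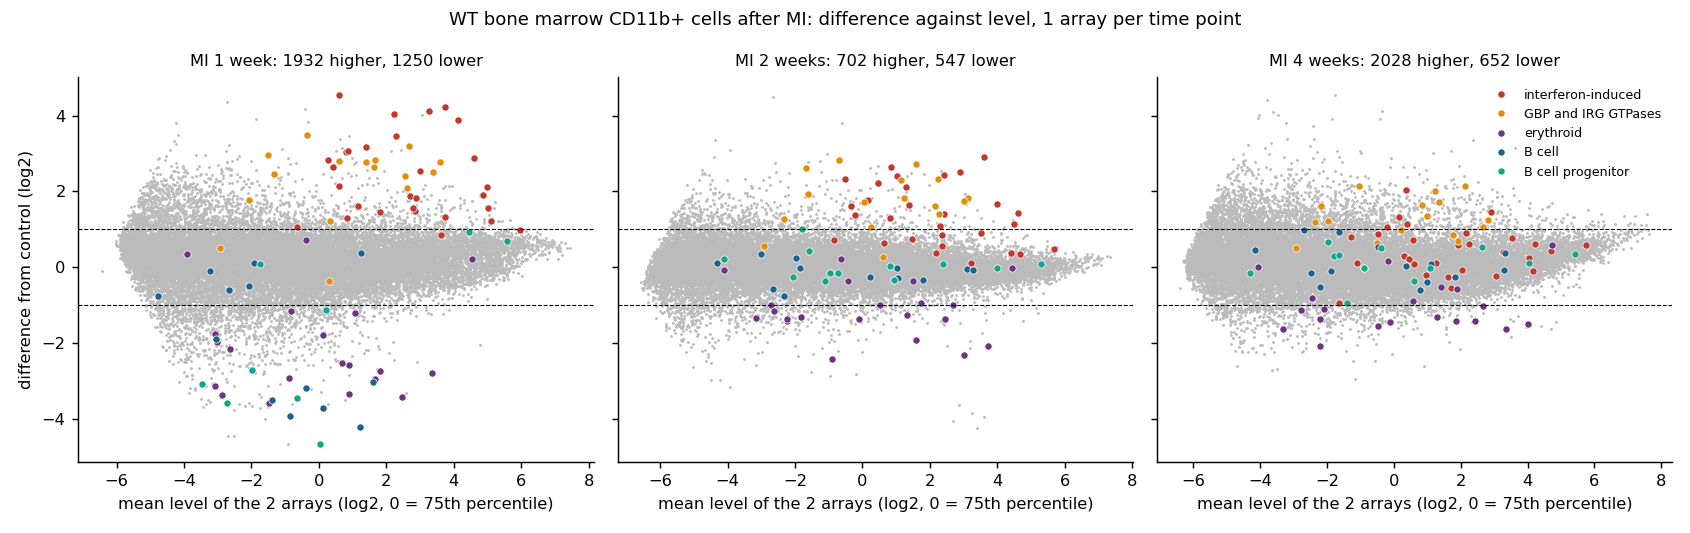
Each grey point is a gene well above background on both arrays, the x axis is the mean log2 level of the 2 arrays and the y axis the log2 difference from control, with dashed lines at 2-fold. At 1 week 28 of 30 interferon-induced genes and 14 of 16 GTPases lie above the upper line while 17 of 20 erythroid and 7 of 13 B cell genes lie below the lower one, and at 4 weeks all B cell genes lie between the lines.

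The largest differences were ranked among genes with a RefSeq symbol and a signal of at least the array's median on the brighter array. All measured probes of a gene had to move the same way. This left 11258 genes at 1 week, 10564 at 2 weeks and 10722 at 4 weeks. Of the 10 largest differences above control at 1 week, 6 were those of the interferon-induced genes Ifit1, Ifit2, Ifit3, Ifit3b, Rsad2 and Oasl2. Promoters of such genes are shown first because the genes moved together. The windows are the 250 bases before the annotated RefSeq start (build GRCm38.p6), written 5′ to 3′ on the strand of the gene. Capitals mark each match to GAAANNGAA, a core of the interferon-stimulated response element with N for any base, on either strand.
Ifit1, chr19:34640639-34640888, plus strand: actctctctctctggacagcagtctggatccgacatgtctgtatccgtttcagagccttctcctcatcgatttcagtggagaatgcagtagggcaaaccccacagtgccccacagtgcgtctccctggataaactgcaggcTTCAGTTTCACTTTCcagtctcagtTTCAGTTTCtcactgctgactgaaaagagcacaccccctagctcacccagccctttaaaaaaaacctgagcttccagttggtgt
Ifit3, chr19:34583279-34583528, plus strand: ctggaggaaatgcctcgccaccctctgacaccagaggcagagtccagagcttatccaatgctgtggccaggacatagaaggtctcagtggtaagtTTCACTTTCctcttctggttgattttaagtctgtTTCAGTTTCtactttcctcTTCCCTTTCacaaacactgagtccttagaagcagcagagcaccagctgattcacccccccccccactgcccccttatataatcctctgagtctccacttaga
Rsad2, chr12:26456453-26456702, minus strand: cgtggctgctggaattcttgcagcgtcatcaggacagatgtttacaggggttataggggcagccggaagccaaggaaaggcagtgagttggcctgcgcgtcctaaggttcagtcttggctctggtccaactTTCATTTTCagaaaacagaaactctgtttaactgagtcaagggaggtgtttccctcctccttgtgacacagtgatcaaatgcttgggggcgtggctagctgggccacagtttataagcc
Gbp2, chr3:142620413-142620662, plus strand: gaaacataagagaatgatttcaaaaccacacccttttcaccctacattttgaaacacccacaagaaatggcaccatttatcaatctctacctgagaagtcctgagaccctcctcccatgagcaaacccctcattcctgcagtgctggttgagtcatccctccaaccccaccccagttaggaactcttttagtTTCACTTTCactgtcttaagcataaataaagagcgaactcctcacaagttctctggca
Igtp, chr11:58199306-58199555, plus strand: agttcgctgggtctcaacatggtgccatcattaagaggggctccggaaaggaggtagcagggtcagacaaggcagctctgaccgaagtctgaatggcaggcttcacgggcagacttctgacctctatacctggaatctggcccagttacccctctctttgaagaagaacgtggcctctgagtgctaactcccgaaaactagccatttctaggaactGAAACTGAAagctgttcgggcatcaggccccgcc
Irgm1, chr11:48871421-48871670, minus strand: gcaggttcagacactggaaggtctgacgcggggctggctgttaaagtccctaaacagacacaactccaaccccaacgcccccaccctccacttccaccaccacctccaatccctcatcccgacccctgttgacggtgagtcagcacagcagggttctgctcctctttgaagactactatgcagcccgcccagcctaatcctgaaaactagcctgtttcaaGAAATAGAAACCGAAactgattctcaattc

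The matches begin 109, 103 and 84 bases before the start in Ifit1, 155, 121 and 102 in Ifit3, 119 in Rsad2, 58 in Gbp2 and 34 in Igtp, and those at 109 and 103 overlap. In Irgm1 a pair of overlapping matches begins 30 and 24 bases before the start. Of the interferon-induced antiviral genes, 22 of 30 had a promoter in the RefSeq table and 10 of these held the motif (45.5%). Of the guanylate-binding and immunity-related GTPases, 10 of 16 had one and 9 held it (90%). Over all genes with a promoter 2211 of 27025 held it (8.18%), and among the 12047 with a promoter that were well above background on all 4 arrays 941 did (7.81%). A match describes the letters in the window and is no measure of binding.

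Nearly all interferon-induced antiviral genes were higher at 1 week. Of 30 members measured, 28 were at least 2-fold higher at 1 week (8.57% of all genes), 19 at 2 weeks (2.92%) and 6 at 4 weeks (8.59%), and none was 2-fold lower at any time. The list median was 2.13 at 1 week, 1.39 at 2 weeks and 0.50 at 4 weeks, against 0.22, -0.00 and 0.13 over all genes. The largest ranked difference above control at 1 week was that of Ifit2, which binds viral RNA and restrains its translation. Ifit2 had a level of -1.68 in control, 2.87 at 1 week, 0.66 at 2 weeks and -0.87 at 4 weeks, so it was 23.3-fold higher at 1 week and 5.04-fold at 2 weeks.

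Ifit1 and Ifit3, from the same family, ran the same way. Ifit1 had levels of 1.21, 5.33, 3.63 and 1.32 in control and at 1, 2 and 4 weeks, and it was 17.3-fold higher at 1 week but 1.08-fold at 4 weeks. Ifit3 had levels of 1.64, 5.86, 4.15 and 2.22 in the same order and was 18.7-fold higher at 1 week. Its near-identical copy Ifit3b was 16.2-fold higher at 1 week, and their probes may not separate them. The antiviral enzyme Rsad2, also called viperin, had levels of 0.22, 4.25, 2.34 and 0.93. In each of these genes the 1-week array was the highest, the 2-week array lay between, and the 4-week array was within 1 log2 unit of control.

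Other members modify proteins, sense nucleic acids or signal to other cells. Oasl2, a relative of the oligoadenylate synthetases, had levels of 2.16, 6.06, 5.07 and 3.63 and was still 2.76-fold above control at 4 weeks. Isg15, the ubiquitin-like modifier, was 7.41-fold higher at 1 week, and Usp18, the protease that removes it, 11.0-fold. The transcription factor Irf7 was 8.23-fold higher at 1 week and 2.09-fold at 4 weeks. The RNA sensors Ifih1 and Ddx58 were 3.69-fold and 2.81-fold higher at 1 week, and the DNA sensor Zbp1 was 8.31-fold higher at 1 week and 4.07-fold at 4 weeks. A different course was that of Cxcl10, a chemokine for activated T cells, with levels of -0.49, 1.65, 2.15 and 0.83 and its peak at 2 weeks. Eif2ak2 had the lowest value of the list at 4 weeks, with a difference of -0.94.

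The order 1 week above 2 weeks above 4 weeks above control held for 20 of the 30 members, against 5.49% of the 22318 genes well above background on all 4 arrays. In 12 members the 1-week array was at least 2-fold above each of the other 3, against 0.945% of all genes. Scaling by quantiles, by the median, by a fixed set of probes or by cyclic loess left 27 members 2-fold higher at 1 week.

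**Figure D2:**
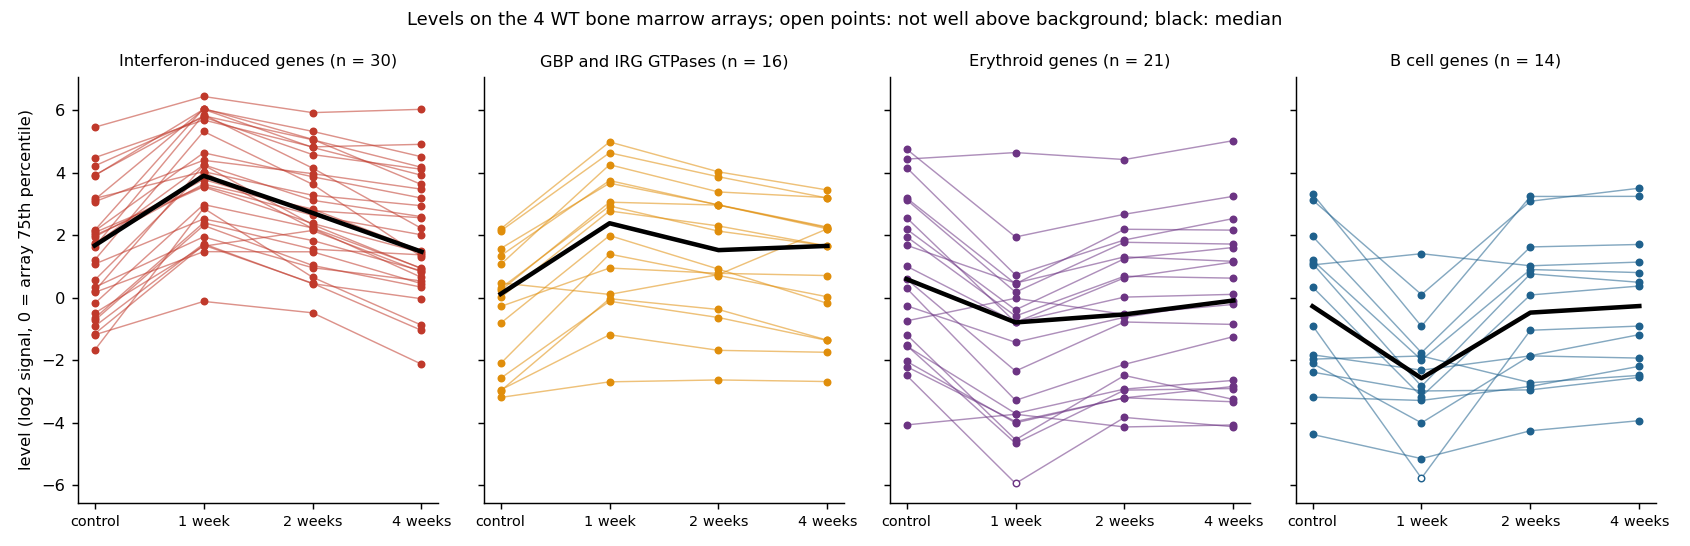
Each thin line is a gene and each point its log2 level on 1 array, with open points where the signal was not well above background and the median in black. The medians of the interferon-induced genes and GTPases peak at 1 week, the median of the erythroid genes stays below control through 4 weeks, and the median of the B cell genes is low at 1 week only.

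The guanylate-binding proteins (GBP) and immunity-related GTPases (IRG), which attack the vacuoles of intracellular pathogens, stayed high for longer. Of 16 members, 14 were at least 2-fold higher at 1 week (8.57% of all genes), 14 at 2 weeks (2.92%) and 11 at 4 weeks (8.59%), with list medians of 2.57, 1.78 and 1.23 against 0.22, -0.00 and 0.13 over all genes. Gbp2 had a level of 1.07 in control, 4.26 at 1 week, 3.39 at 2 weeks and 3.21 at 4 weeks, which was 9.15-fold, 5.00-fold and 4.41-fold above control. Gbp4 had levels of -2.10, 1.40, 0.71 and 0.03, and Tgtp2 had levels of 0.24, 3.06, 2.97 and 2.24. In both genes all 3 arrays after MI were well clear of control.

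Igtp, which guards membranes against these GTPases, had levels of 2.21, 4.99, 4.03 and 3.45. The descending order after 1 week held for 14 of 16 members (5.49% of all genes). In 10 of the 16 the control array lay at least 2-fold below each of the other 3, compared with 1.47% of all genes. The same was true of 6 of the 30 interferon-induced genes. Gbp6 was an exception by its brighter probe, with differences of -0.37, 0.27 and 1.73, while its second probe gave 4.37, 4.00 and 2.70. The second probe of Iigp1 gave differences of 5.16, 5.52 and 4.04 where the first gave 1.23, 1.06 and 0.99. Members of this family are close copies of each other, 1 probe may read several, and Gbp6, Gbp10, Tgtp1 and Tgtp2 are uncertain for that reason.

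Other genes among the largest differences ran with these lists. Cd274, which encodes the checkpoint ligand PD-L1, had levels of -0.47, 2.40, 2.20 and 1.99, and was 6.36-fold higher at 2 weeks. Ly6a, which encodes the interferon-inducible surface protein Sca-1, had levels of -1.07, 2.30, 1.53 and 0.61. Gm4951 had levels of -2.49, 1.68, 1.30 and 0.52 and was 18.0-fold higher at 1 week and 13.9-fold at 2 weeks. In all 3 genes every array after MI lay above control.

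Of 14 MHC class I presentation genes, 8 were at least 2-fold higher at 1 week (8.57% of all genes), 5 at 2 weeks (2.92%) and 8 at 4 weeks (8.59%). All 14 had values above control at each time, with medians of 1.10, 0.79 and 1.11 against 0.22, -0.00 and 0.13 over all genes. Tap1, a chain of the transporter that feeds peptides to class I molecules, had levels of -1.11, 1.34, 0.92 and 0.56. Nlrc5, the transactivator of class I genes, had levels of 2.07, 4.24, 4.00 and 3.62. The immunoproteasome subunit Psmb9 had levels of 3.25, 5.08, 4.47 and 4.82. These 3 genes were more than 2-fold above control throughout. Scaling changed the counts, which ran from 4 to 7 members at 1 week and from 5 to 8 at 4 weeks over the other scalings, and the medians stayed above 0.

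Upstream genes of the pathway differed less. Of 19 interferons, receptors and signalling genes measured at 1 week, 4 were at least 2-fold higher (8.57% of all genes) and none lower. These were Stat2 (4.44-fold), Socs1 (2.46-fold), Irf1 (2.41-fold) and Irf9 (2.03-fold), which act downstream of the receptors. Stat2 had levels of 2.67, 4.82, 3.58 and 2.85, and so returned to near control by 4 weeks. Ifnb1 was not well above background on any array. Ifng, the type II interferon, was dim, with levels of -3.34, -3.91, -2.82 and -1.96, and it was 2.59-fold higher at 4 weeks. The gene for the endosomal RNA receptor Tlr7 was 2.49-fold lower at 2 weeks and 2.91-fold lower at 4 weeks, and its second probe gave differences of -1.17 and -1.44.

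B cell genes passed 2-fold on the 1-week array alone. Of 13 B cell genes measured at 1 week, 7 were at least 2-fold lower (5.55% of all genes) and none higher, with a median of -1.90 against 0.22 over all genes, while none of 14 differed 2-fold at 2 or 4 weeks. The 1-week median was -0.72 with normexp and -0.46 over the second probes. Spib, a transcription factor of B cells and plasmacytoid dendritic cells, had a level of 3.32 in control, -0.91 at 1 week, 3.24 at 2 weeks and 3.25 at 4 weeks. Cd79b, a signalling chain of the B cell receptor, had levels of 3.13, 0.10, 3.09 and 3.51. Ms4a1, which encodes CD20, had levels of 1.10, -2.83, 0.77 and 0.50 and was 15.3-fold lower at 1 week. For all 3 the 1-week array stood alone and the other 3 arrays lay close together.

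Cd72 was 11.4-fold lower at 1 week and the coactivator Pou2af1 13.2-fold. Cd22 was 1.28-fold higher and Cd79a 1.08-fold lower, so the list did not move as a whole. In 7 of the 13 members well above background on all arrays, the 1-week array lay at least 2-fold below each of the other 3 (1.88% of all genes).

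Genes of B cell progenitors went lower still. At 1 week 6 of 9 measured members were at least 2-fold lower (5.55% of all genes), with a median of -2.71, and no member was lower by 2-fold at 2 or 4 weeks. Vpreb3, part of the surrogate light chain system, had levels of 2.36, -2.30, 2.44 and 2.89 and was 25.3-fold lower at 1 week. Vpreb1 was 11.1-fold lower and Igll1 8.56-fold, both chains of the pre-B cell receptor, and the receptor gene Il7r was 12.1-fold lower. Ebf1, which specifies the B lineage, was not well above background at 1 week and was at least 29.5-fold lower, from a control level of -0.89. Rag1, which cuts antigen receptor genes, was at least 18.4-fold lower, and Rag2 at least 4.84-fold, although the second probe of Rag2 gave -0.44. The members Bst1 and Cd24a, which myeloid cells also carry, were 1.90-fold and 1.61-fold higher at 1 week.

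Some other genes with large differences below control at 1 week had the same course. Fcrla, a B cell Fc receptor-like gene, had levels of 1.42, -3.26, 1.43 and 1.42 and was 25.7-fold lower at 1 week. Bach2, a repressor of plasma cell fate, had levels of -0.30, -4.76, -0.39 and -0.83. Akap12 had levels of 0.40, -3.62, 0.35 and 0.26. Slc6a9, a glycine transporter also among the 10 largest, had a different course, with levels of 0.12, -3.60, -1.82 and -1.69. The lipoxygenase gene Alox12 was 8.45-fold lower at 1 week, and its second probe gave -3.43. H2-Ob, a regulator of class II peptide loading, was 10.2-fold lower by its brighter probe, but its second probe gave 0.14, and the MHC class II list had a median of 0.05.

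Erythroid genes were low at 1 week and remained below control at 2 and 4 weeks. Of 20 members measured at 1 week 17 were at least 2-fold lower (5.55% of all genes), followed by 12 of 21 at 2 weeks (2.28%) and 13 of 21 at 4 weeks (2.76%). None was 2-fold higher. The medians were -2.56, -1.26 and -1.13, against 0.22, -0.00 and 0.13 over all genes. Over the second probes the median was -0.62 at 2 weeks and -0.56 at 4 weeks, and with normexp it was -0.93 at 4 weeks. The alpha globin gene Hba-a1 had a level of 4.17 in control, 0.73 at 1 week, 1.85 at 2 weeks and 2.54 at 4 weeks. The beta globin gene Hbb-bt had levels of 4.76, 1.95, 2.67 and 3.25. Each array after MI lay below control in both, in the order 1, 2 and 4 weeks, and globin probes may read the near-identical copies of each gene.

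Alas2, the first enzyme of heme synthesis in red cell precursors, had levels of 0.31, -3.28, -2.13 and -1.24 and was 12.0-fold, 5.42-fold and 2.93-fold lower. The anion exchanger Slc4a1, known as band 3, had levels of 2.56, -0.79, 0.64 and 1.14. The lineage factors were lower as well: Klf1 had levels of 2.20, -0.39, 1.25 and 1.61, and Gata1 had levels of 1.96, -0.58, 0.69 and 0.63. Car1 and Tfrc, whose products are not confined to late red cell precursors, were 2.25-fold and 2.32-fold lower at 1 week and within 2-fold later.

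The order control above 4 weeks above 2 weeks above 1 week held for 9 of the 20 members well above background on all arrays (4.94% of all genes). In 10 of the 20 the control array lay at least 2-fold above each of the other 3, which was true of 0.502% of all genes, and in 10 the 1-week array lay at least 2-fold below each of the others (1.88%). Promoters of erythroid genes were searched for the GATA factor motif AGATAA, on both strands. Of 16 members with a promoter 7 held it (43.8%), against 11.4% of all genes with a promoter. The share was not particular to erythroid genes, since 4 of 10 GTPases with a promoter held the motif too (40%). It was lower in the interferon-induced genes (3 of 22) and the B cell progenitor genes (2 of 10), and no B cell or MHC class I gene held it. A pair of them is shown, with the match in capitals, because both genes lay below control at all 3 times.
Alas2, chrX:150547167-150547416, plus strand: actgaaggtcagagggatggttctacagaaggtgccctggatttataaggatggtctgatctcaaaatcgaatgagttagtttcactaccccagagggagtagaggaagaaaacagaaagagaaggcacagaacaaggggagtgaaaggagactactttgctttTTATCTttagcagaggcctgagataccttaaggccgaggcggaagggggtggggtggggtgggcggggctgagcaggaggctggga
Icam4, chr9:21029182-21029431, plus strand: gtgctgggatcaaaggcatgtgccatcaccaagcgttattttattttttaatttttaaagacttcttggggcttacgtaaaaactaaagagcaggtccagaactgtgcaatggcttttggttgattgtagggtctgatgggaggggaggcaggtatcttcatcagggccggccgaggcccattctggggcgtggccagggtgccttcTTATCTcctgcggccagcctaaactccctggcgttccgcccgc
The match begins 86 bases before the start in Alas2 and 43 in Icam4, an erythroid adhesion molecule that was 3.92-fold, 2.25-fold and 1.75-fold lower.

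Other marrow lineages were mixed at 1 week, when 5.55% of all genes were lower and 8.57% higher. Of 16 platelet and megakaryocyte genes 8 were at least 2-fold lower at 1 week and none at 2 or 4 weeks, with medians of -0.99, -0.08 and 0.16 against 0.22, -0.00 and 0.13 over all genes. Ppbp, a platelet chemokine, had levels of 2.79, 0.71, 2.64 and 2.80, whereas Pf4, also stored in platelets, had levels of 3.12, 2.62, 2.71 and 3.72. Of 11 stem and progenitor genes measured at 1 week, 7 were lower and 1 was higher, with a median of -1.14 that was -0.58 with normexp and -0.18 over the second probes. Cd34 was 6.04-fold lower and the receptor gene Flt3 5.88-fold, and Flt3 was still 2.63-fold lower at 4 weeks. For these 2 genes the second probes gave -0.91 and -0.72 at 1 week.

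Basophil and mast cell genes had 5 of 11 members lower at 1 week (5.55% of all genes), including the proteases Mcpt8 (3.57-fold) and Cpa3 (3.96-fold). Hdc, which makes histamine and is also a gene of myeloid precursors, had levels of 5.11, 5.51, 4.75 and 5.11 and did not follow them. Among 15 NK and cytotoxic genes 5 were lower and 1 was higher at 1 week, with Gzma 3.06-fold and Klrd1 4.15-fold lower. Of 9 endothelial genes measured at 1 week 4 were lower, with a median of -0.09, among them Cdh5, the junction protein VE-cadherin, which was 4.84-fold lower. T cell genes had 3 of 14 members lower, and their median was -0.02.

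Of the stromal niche and matrix genes 6 of 20 were at least 2-fold lower at 1 week (5.55% of all genes) and 2 were higher (8.57%). At 2 weeks none of 22 differed 2-fold, and at 4 weeks 8 of 22 were higher (8.59%) and none lower. The medians were -0.51, 0.01 and 0.88, against 0.22, -0.00 and 0.13 over all genes. Cxcl12, the chemokine that retains myeloid cells in the marrow, had levels of 1.79, -0.68, 1.66 and 2.43, so that it was 5.53-fold lower at 1 week, and its second probe gave -2.24. Igfbp5 had levels of -0.11, -2.38, 0.79 and 1.65 and was 4.80-fold lower at 1 week and 3.39-fold higher at 4 weeks. Lepr, a marker of perivascular stromal cells, had levels of -1.43, -0.76, -0.48 and 0.26, while its second probe gave 0.66 at 4 weeks.

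Col1a1 ran against the list at 1 week, with levels of 0.61, 2.16, 0.05 and 1.07, and lay above control with it at 4 weeks. The 4-week array was the highest of the 4 in 16 of the 20 members well above background on all arrays, against 27.6% of all genes. With other scalings the number at least 2-fold higher at 4 weeks ran from 4 to 8, and the median stayed above 0.

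**Figure D3:**
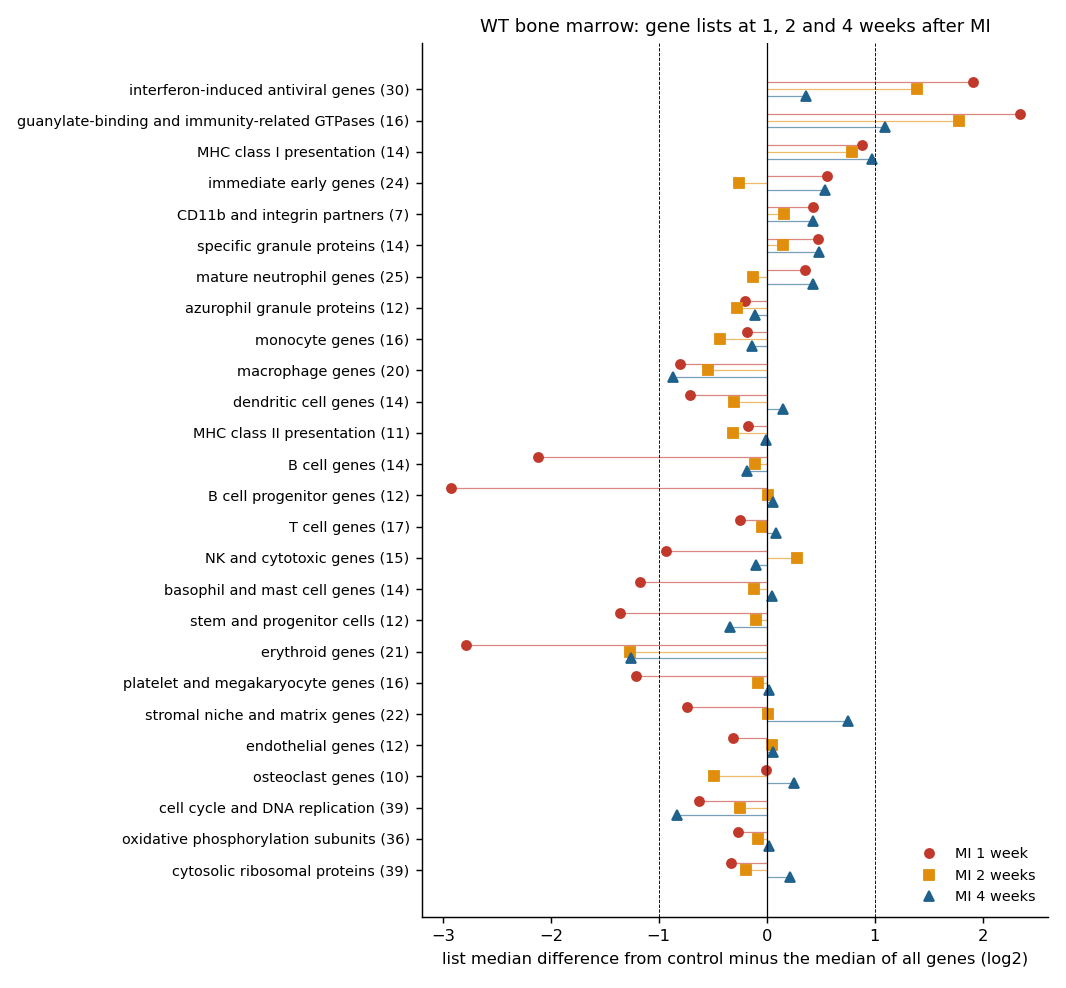
Each point is the median log2 difference from control of a gene list minus the median of all genes at the same time, with the number of members on the array in brackets and dashed lines at 2-fold. At 1 week the lists of B cell, B cell progenitor, erythroid, platelet, basophil and stem cell genes lie below -1 while the lists of interferon-induced genes and GTPases lie above 1.

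Lists of neutrophil genes, which CD11b+ cells carry, differed by less than 2-fold in their medians. The 14 specific granule proteins had medians of 0.70, 0.15 and 0.62, and the 25 mature neutrophil genes 0.57, -0.13 and 0.56, against 0.22, -0.00 and 0.13 over all genes. With this scaling both stood highest on the dimmer 1-week and 4-week arrays. With quantile normalization the specific granule medians were 0.20, 0.19 and 0.09, and the mature neutrophil medians 0.25, -0.07 and 0.10. Scaling by the median, by a fixed set of probes or by cyclic loess kept both lists highest at 1 and 4 weeks. The alarmin gene S100a8 had levels of 5.84, 6.52, 5.82 and 6.44. The azurophil granule genes had a median of 0.02 at 1 week, where 1 of 12 was 2-fold lower, the protease gene Ctsg (2.35-fold). Mpo, which encodes myeloperoxidase, had levels of 5.41, 4.57, 5.00 and 5.43. Both stayed within 2-fold of control at 2 and 4 weeks.

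Of 16 monocyte genes 4 were at least 2-fold lower at 2 weeks (2.28% of all genes) and none higher, with a median of -0.44 against -0.00 over all genes. They included F13a1 (2.33-fold), Fn1 (2.19-fold) and the fractalkine receptor gene Cx3cr1 (2.10-fold). The second probes gave -0.67 for F13a1 and -0.91 for Cx3cr1. Also at 2 weeks, Il1r2, which encodes a decoy receptor for interleukin 1, had a level of 2.21 against 4.15 in control, 3.89 at 1 week and 3.35 at 4 weeks. The matrix gene Vcan was 6.86-fold lower at 2 weeks, while its second probe gave -0.32, Ms4a8a was 7.14-fold lower, and the neutrophil chemokine gene Cxcl2 was 2.59-fold lower, with levels of 1.53, 1.85, 0.15 and 2.07.

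Of 20 macrophage genes 5 were at least 2-fold lower at 1 week (5.55% of all genes), 4 at 2 weeks (2.28%) and 8 at 4 weeks (2.76%), and 2, 0 and 1 were higher. The medians were -0.58, -0.55 and -0.74, against 0.22, -0.00 and 0.13 over all genes. Vcam1, an adhesion molecule of the macrophages that hold red cell precursors, had levels of 3.05, 1.91, 1.62 and 0.89. Mrc1, the mannose receptor CD206, had levels of 1.17, -0.15, 0.05 and -0.65. The 4-week array was the lowest of the 4 for both. Siglec1, an interferon-responsive macrophage lectin, was 2.18-fold higher at 1 week and 2.58-fold lower at 4 weeks, although its second probe gave 0.99 and 0.42.

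The dendritic cell lectin Cd209a had levels of 0.48, -1.97, -2.39 and -1.55, and the related Cd209c was 8.91-fold lower at 2 weeks. Osteoclast genes split. Acp5, tartrate-resistant acid phosphatase, had levels of 4.16, 1.66, 3.13 and 2.79, and Ctsk, the bone-degrading cathepsin, had levels of 1.70, -0.74, 0.67 and -0.06. The pump subunit gene Atp6v0d2 was 5.13-fold, 2.42-fold and 3.50-fold lower. Control was thus the highest array in these 3 genes. Oscar, which encodes an osteoclast receptor, was 3.64-fold higher at 4 weeks.

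Of 24 immediate early genes 8 were at least 2-fold higher at 1 week (8.57% of all genes) and 5 at 4 weeks (8.59%), and 2 were lower at 2 weeks (2.28%). Fosb had levels of -0.31, 2.41, -0.44 and 2.25. Atf3 had levels of 2.51, 3.91, 1.60 and 4.61, and Jun had levels of 4.34, 5.72, 4.19 and 5.27. For 18 of the 24 both the 1-week and the 4-week array lay above control and the 2-week array, which held for 34.4% of all genes. The heat shock gene Hspa1a, which has a near-identical copy, had levels of -3.82, 0.10, -1.30 and 0.09 and was 15.1-fold, 5.71-fold and 15.0-fold higher. Hspa1a also lay above the control array of the other sets. Its differences were 2.48, 4.34 and 3.42 in HDC-KO bone marrow and 3.81, 3.63 and 4.45 in WT spleen. In STAT6-KO bone marrow they were 1.45 at 2 weeks and 3.16 at 4 weeks. In WT bone marrow the 1-week and 4-week arrays were also the 2 with the lowest 75th percentile signals, 1106 and 963. The part of array brightness in the WT bone marrow differences was not tested.

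Of 38 cell cycle and replication genes measured at 4 weeks 6 were at least 2-fold lower (2.76% of all genes) and none higher. The list medians over time were -0.40, -0.24 and -0.70, against 0.22, -0.00 and 0.13 over all genes. Ccnb1, the mitotic cyclin B1, had levels of 1.75, 1.14, 1.24 and 0.49, and Mki67 had levels of 4.13, 3.70, 3.89 and 3.37. Other scalings gave 6 to 15 lower members at 4 weeks. Subunits of oxidative phosphorylation and cytosolic ribosomal proteins had no member past 2-fold at any time.

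The largest ranked differences above control at 4 weeks lay in genes that were dim in control. Fam13c had levels of -4.05, -3.93, -2.68 and 0.51 and was 23.5-fold higher. Its second probe gave a difference of 1.66 but was not well above background on both arrays compared. The small nuclear RNA gene Rnu2-10 had levels of -2.41, -2.51, -2.46 and 1.71, and Plcd3 was 16.1-fold higher by its brighter probe. The olfactory and vomeronasal receptor genes Olfr576 and Vmn2r60 and the squamous cell gene Crnn were also among the 10 largest. All but Plcd3 were well above background on all 4 arrays, and control levels of these 6 genes ran from -6.04 to -2.37. In HDC-KO bone marrow at 4 weeks Fam13c, Crnn, Olfr576, Vmn2r60, Rnu2-10 and Plcd3 differed by 3.77, 2.99, 2.87, 2.29, -0.70 and -0.17. In STAT6-KO bone marrow they differed by -2.46, -1.73, -1.97, -1.49, -1.54 and 0.29. The 75th percentile signal was 1125 against 1514 in control for HDC-KO, and 1762 against 1385 for STAT6-KO. The part of array brightness was not tested. Among genes well above background on 1 side only in WT bone marrow, Olfr464 was at least 30.1-fold higher and Gsx2 at least 29.5-fold higher at 4 weeks. The second probe of Gsx2 gave a difference of 0.13, but it was not well above background in control and so is no check of the bound. Where a gene past 2-fold had a second measured probe, that probe moved the same way for 81.5% at 1 week, 80.9% at 2 weeks and 78.1% at 4 weeks, and it also passed 2-fold for 42.0%, 31.2% and 29.0%.

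Taking no array as the baseline, the 1-week array stood apart most often. It lay at least 2-fold above each of the other 3 for 211 genes and below for 419. The control array lay above for 112 and below for 328, the 2-week array above for 26 and below for 60, and the 4-week array above for 277 and below for 34.

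The same lists on other arrays of the series, each against the control array of its own slide, are set side by side without a test. STAT6-KO bone marrow had no usable array at 1 week. Hdc checked the HDC-KO label, with levels of 2.51, 2.32, 2.78 and 2.36 in HDC-KO bone marrow against 4.75 to 5.51 in WT bone marrow. Stat6 had levels of 1.76, 2.34 and 2.32 in STAT6-KO bone marrow and 2.78 to 3.70 in WT bone marrow, and whether its probe lies in the deleted part is not given in the sources used here. In HDC-KO bone marrow the interferon-induced list had medians of -0.15, -0.18 and 0.40 at 1, 2 and 4 weeks. In STAT6-KO bone marrow the same list had 0.30 at 2 weeks and 1.96 at 4 weeks, and in WT spleen it had 1.56, 1.02 and 0.62. In both WT tissues the highest of the 3 medians was that of 1 week. The sets started from unlike control levels. The median level of this list on the control array was 1.67 in WT, 1.92 in HDC-KO and 0.27 in STAT6-KO bone marrow. It was 1.87 in WT spleen.

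B cell genes had a median of -2.09 at 1 week in HDC-KO bone marrow and -0.41 in WT spleen. The later medians were -0.41 and 0.03 in HDC-KO bone marrow, 0.53 and 1.49 in STAT6-KO bone marrow, and 1.13 and 0.43 in WT spleen. The median B cell level on the control array was -0.27 in WT, 0.62 in HDC-KO and -1.57 in STAT6-KO bone marrow. It was 0.88 in WT spleen. Erythroid genes had medians of -0.50, -0.53 and 0.19 in HDC-KO bone marrow, 0.32 and 1.33 in STAT6-KO bone marrow and 0.38, 0.45 and 0.00 in WT spleen. No erythroid median of these 3 sets was 2-fold or more below its control at the times measured. The median erythroid level on the control array was 0.60 in WT, 0.04 in HDC-KO and -0.80 in STAT6-KO bone marrow. It was -0.61 in WT spleen.

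**Figure D4:**
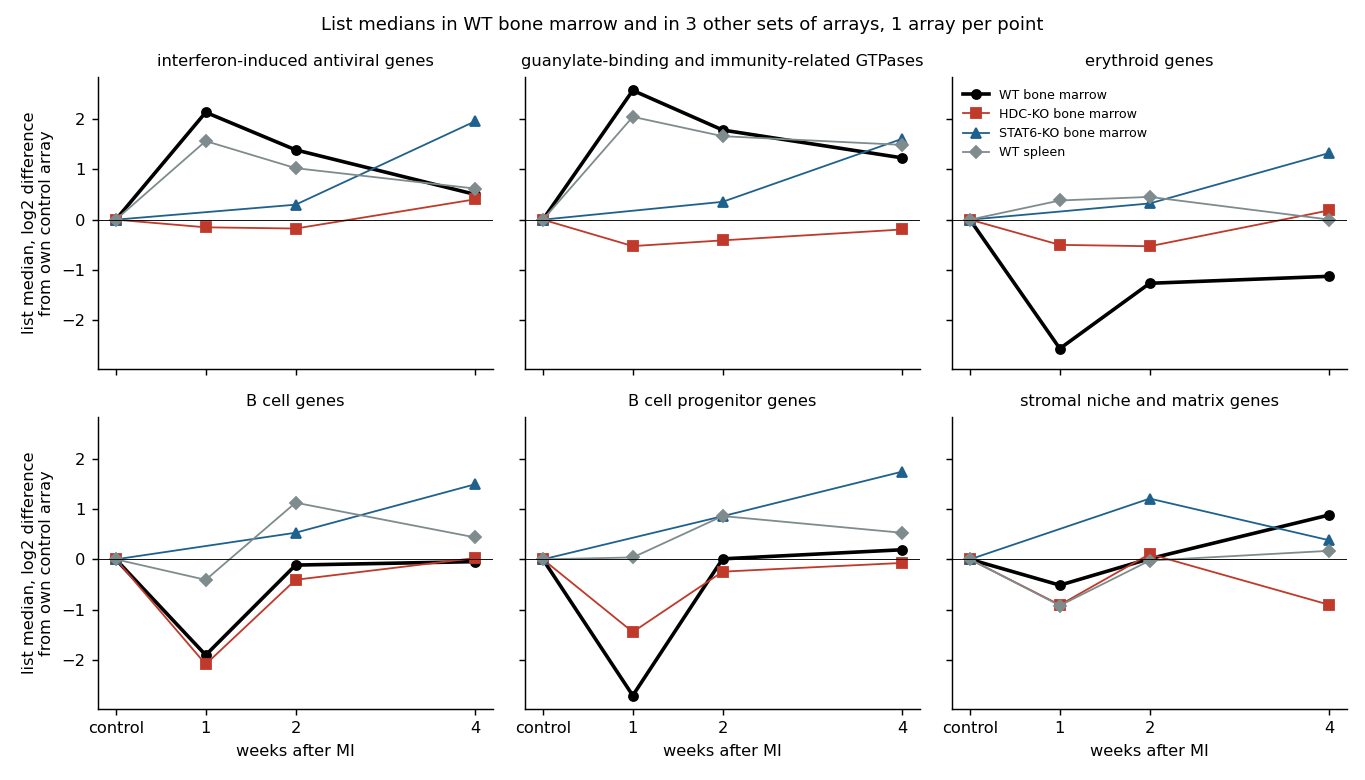
The y axis is the median log2 difference of a gene list from the control array of its own set and the x axis the weeks after MI, with control at 0 by construction, 1 array per point and no 1-week point for STAT6-KO bone marrow. The 1-week low of B cell genes appears in WT and HDC-KO bone marrow, and the 1-week peak of interferon-induced genes in WT bone marrow and WT spleen.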

How the data were processed

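RNA of CD11b+ cells, pooled from 5 mice per sample, was hybridised in 1 colour (Cy3) to Agilent mouse arrays. The authors deposited Agilent Feature Extraction files (version 11.0.1.1) with background-subtracted spot intensity, and the submitters' processing notes also name GCRMA. From the deposited intensity, the log2 processed signal of spots other than controls was taken minus the 75th percentile of its array. Outlier spots (449 on the 4 arrays) were left out, no spot was saturated, spots of a probe were averaged, and a gene was read by its probe with the highest mean over the 22 full arrays. A gene not well above background on 1 side was given as a bound against the higher of its own signal and the lowest signal well above background on that array. Alternatives used limma 3.58.1 in R 4.3.3. The steps were tested on simulated data in which only genes with a control level of at least -2 were changed. How well changes in dimmer genes are recovered was not tested. The members and the 45 gene lists were chosen with earlier results of these data known. Named genes are the 10 largest differences each way per comparison, the 3 largest bounds, and list members with the highest means or past 2-fold. The 10 largest were taken among genes with a RefSeq symbol, at or above the array's median on the brighter array. Their measured probes all had to move the same way. Of the 431 genes named by these rules, 319 are left out. Cd79a, Ifnb1, Rag2 and Tgtp1 were named after their values were seen.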

Additional observations from a re-analysis of the deposited data

Results flagged for a closer look

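Erythroid genes at 4 weeks had a median difference of -1.13 in WT bone marrow and of 1.33 in STAT6-KO bone marrow, each against the control array of its own slide. The list is noted because both medians passed 2-fold in opposite directions at the same time. The WT value was -0.93 with normexp and -0.56 over the second probes, so that it passed 2-fold in 7 of the 9 other settings. The difference between these sets was not tested, since each value rests on 1 array against 1 array, and slide and genotype cannot be told apart. The control arrays themselves differed, with 9.30% of 23931 genes at least 2-fold higher and 3.87% lower in STAT6-KO than in WT. The erythroid list had a median level of 0.60 on the WT control array and -0.80 on the STAT6-KO control array. The 2 differences thus start from unlike control levels.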

How the results depend on the processing

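Of 66 recomputed counts of genes past 2-fold, 45 stayed within 1.5 times the reported count. Normexp with an offset of 50 gave 5168 higher and 475 lower at 1 week, 333 and 240 at 2 weeks, and 252 lower at 4 weeks. Scaling to the median of all spots gave 1296 higher and 1421 lower at 4 weeks, and lower genes at 4 weeks numbered 1107 with quantile normalization and 1018 with cyclic loess. At 1.5-fold the counts were 5750 and 2827, 2302 and 1852, and 4976 and 2508 at 1, 2 and 4 weeks, and at 4-fold 297 and 255, 70 and 39, and 221 and 33. Genes with 1 array apart, 440 for control, 630 at 1 week, 86 at 2 weeks and 311 at 4 weeks, numbered 240, 324, 31 and 135 with normexp, and without a filter 1074 at 1 week and 467 at 4 weeks; other settings kept them within 1.5 times. No list median past 2-fold changed sign under the settings run for it. None of the 10 largest differences each way at each time did so either. The second-probe setting could not reverse these genes, because they were picked so that all measured probes moved the same way. Of 1173 list medians recomputed, 943 moved by less than the technical SD of a difference (0.165). This SD comes from repeated spots of single probes and is not the spread of a list median. A median near 0 could change sign and still count among the 943. The median of the B cell list at 1 week ran from -2.47 to -0.46, that of the erythroid list from -2.70 to -1.62 at 1 week, from -1.35 to -0.62 at 2 weeks and from -1.36 to -0.56 at 4 weeks, that of the stem and progenitor list at 1 week from -1.28 to -0.18 and that of the interferon-induced list at 1 week from 1.90 to 2.84. The share of higher calls at 4 weeks went from 75.7% to 47.7% with median scaling, and at 1 week from 60.7% to 46.4%. Leaving out an array removes its comparison, so no such value exists. No paired analysis was possible because each condition has 1 array and no result comes from a test. Dim signals limit the counts, since repeated spots under a level of -2 had a median SD up to 0.161.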
